A study of Sus scrofa with 12 samples.

Results

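The genes described here encode the proteins of the cytosolic ribosome in the jejunum of piglets. They were taken from the deposited expression table by name, as every entry called RPL or RPS with a number (and RPSA, RPLP0, RPLP1 or RPLP2), leaving out the RPS6 kinases. Entries with the same name were summed, and a mean of at least 0.5 FPKM over all libraries was required, FPKM being sequenced fragments scaled to transcript length and to the mapped reads of the library. Of 17049 gene names, 49 matched and 48 passed, 22 of the small and 26 of the large subunit. The excluded name was RPS19, a small subunit protein known from Diamond-Blackfan anaemia, which was listed at 0 in 8 libraries and at no more than 0.343 FPKM elsewhere.

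RNA-seq was made from the jejunum of 12 piglets in 4 groups of 3 biological replicates. W_Con piglets were 21 days old, taken on the day of weaning, from control sows on a corn and soybean meal diet, and PW_Con piglets came from such sows at 28 days of age, 7 days after weaning. W_Res and PW_Res piglets had the same ages, and their sows ate that diet with 300 mg/kg resveratrol, a plant polyphenol, from day 20 after mating until the end of lactation. According to the series record, litters were sired with semen pooled from Landrace boars, piglets were cross-fostered within each diet, and weaned piglets stayed in their pens after the sow was removed. The study's methods, which cover the control piglets, instead give Yorkshire × Duroc litters and a move to another room at weaning, so whether the weaning comparison includes a change of room is uncertain. Those methods took a male from each litter at both ages, so W_Con and PW_Con piglets may share litters, and which litter each library came from is not given in the sources used here. Weaning and 7 days of age cannot be told apart.

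A ribosome has a small subunit, which reads the messenger RNA, and a large subunit, which joins the amino acids. Each protein is needed in about the same amount, and most of their messenger RNAs begin with a pyrimidine tract through which growth signalling by mTOR raises or lowers translation. In the gut, cells of the crypt that divide and cells that secrete make many ribosomes. The genome also holds many intronless copies of these genes, so that short reads can fit several places. How reads with several matches were divided is not given in the sources used here, and levels of single ribosomal protein genes are uncertain to that extent. The study's mapping summary, which covers the control piglets, lists a larger share of such reads in every weaned library than in every sucking library. The part of this difference in PW_Con against W_Con was not tested.

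These genes were among the most abundant of the jejunum, with 10 of them in the top 50 genes by mean FPKM, 23 in the top 100 and 33 in the top 200. Mean levels per gene ran from 17.0 to 1349 FPKM with a median of 409.9 FPKM. Above 1000 FPKM were RPS3 (1349 FPKM), which lies where messenger RNA enters the ribosome, RPS23 (1269 FPKM) of the decoding centre, RPL34 (1187 FPKM), RPS20 (1097 FPKM) and RPS6 (1031 FPKM), the target of the S6 kinases. A further 17 genes lay between 500 and 1000 FPKM, among them RPL38 (886 FPKM), RPL4 (785 FPKM) of the peptide exit tunnel, RPL11 (750.4 FPKM) and RPL5 (685 FPKM), which bind the 5S ribosomal RNA, RPS27A (715 FPKM), made as a fusion with ubiquitin, and RPL3 (668 FPKM) near the catalytic centre. Between 100 and 500 FPKM there were 20 genes, and 3 lay between 50 and 100 FPKM (RPL9, RPS16 and RPS28). The lowest levels were those of 3 paralogs, RPL26L1 (38.7 FPKM), RPS27L (20.3 FPKM) and RPL7L1 (17.0 FPKM).

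Some entries of the table carry an Ensembl identifier in place of a symbol. Among them were 16 that the table itself places in the ribosome pathway. The pig annotation names 3 of these RPLP1, RPLP2 and RPS16. RPLP1 (mean 2069 FPKM) and RPLP2 (mean 756 FPKM) form the stalk that binds elongation factors, and RPLP1 stood above every gene found by symbol. The RPS16 entry without symbol had a mean of 388 FPKM, against 60.9 FPKM for RPS16 under its symbol, which was 10.8 to 21.9% of the other entry in every library. Values of RPS16 below are those of the lower entry, and RPLP0, RPL7, RPL10 and RPL22L1 were not analysed here.

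The summed FPKM of the 48 genes was 23221, 21803 and 21254 in the W_Con libraries and 19421, 22939 and 25173 in the PW_Con libraries. In resveratrol litters it was 24779, 28044 and 25118 in W_Res and 17667, 26678 and 22581 in PW_Res. All 3 W_Res libraries lay above all 3 W_Con libraries, whereas the other groups overlapped, and the lowest and second highest of the 12 sums were both PW_Res libraries. Means were 22093 ± 1015 FPKM in W_Con, 22511 ± 2899.6 in PW_Con, 25980.5 ± 1795 in W_Res and 22309 ± 4512 in PW_Res (SD, n = 3 each). These genes made up 7.34 ± 0.512%, 7.51 ± 0.823%, 8.50 ± 0.581% and 7.23 ± 1.48% of the FPKM of all named genes in the same order. In whole tissue, fewer cells of a type and less RNA per cell cannot be told apart.

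FPKM divides by each library's own total, so the sums were also divided by a size factor, the median over genes of a library's ratio to the mean library. Size factors were 0.926 to 1.10 in W_Con, 0.997 to 1.03 in PW_Con, 1.02 to 1.13 in W_Res and 0.926 to 0.966 in PW_Res. The means then became 21645 ± 1138 in W_Con, 22268 ± 2658 in PW_Con, 23776 ± 1673 in W_Res and 23806 ± 5268 in PW_Res (SD, n = 3 each). With this scaling the lowest W_Res library (21849.8) lay below the highest W_Con library (22954), and the mean of PW_Res no longer lay below that of W_Res.

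**Figure D1:**
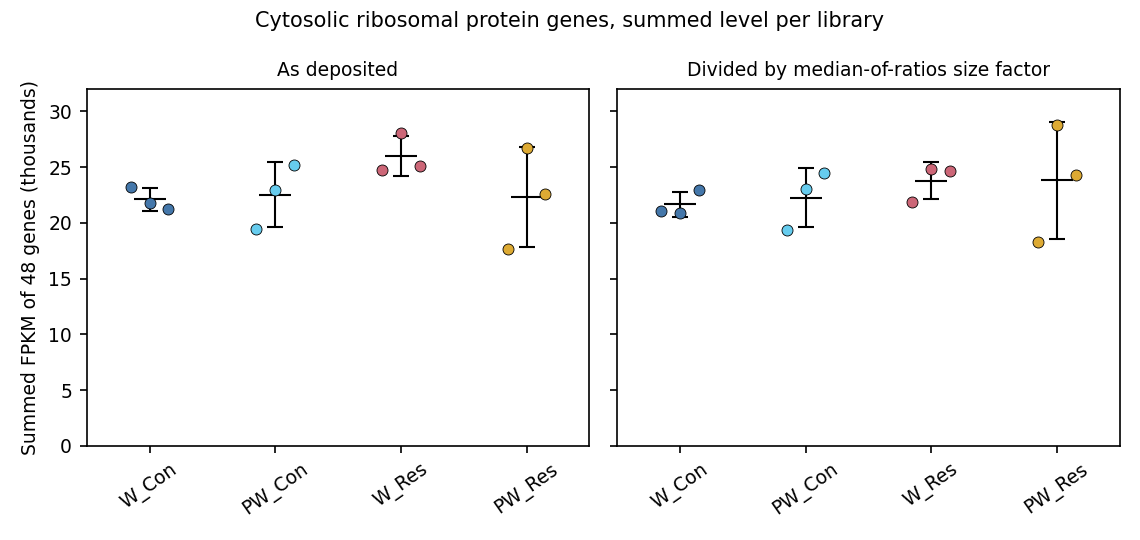
Summed level of the 48 ribosomal protein genes in each library, in units of 1000 FPKM as deposited (left) and after division by the size factor (right). Points are libraries, and bars are the group mean ± SD (n = 3); W_Res lies above W_Con without overlap on the left and overlaps it on the right.

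The summed FPKM of the large subunit was 0.961 ± 0.00612 times that of the small subunit in W_Con, 0.965 ± 0.0368 in PW_Con, 0.975 ± 0.0529 in W_Res and 0.968 ± 0.0207 in PW_Res (SD, n = 3 each). All 12 libraries lay between 0.929 and 1.03, and the groups overlapped. The level of this ratio depends on which genes carry a symbol, since RPLP1 and an abundant RPS16 entry lie outside the sums, and it is no measure of balance between the subunits.

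Single genes varied more. Among the 47 genes above 0 in every library, the highest library was 1.56 times (RPS10) to 3.78 times (RPSA) the lowest, with a median of 1.98, and 25 genes stayed under 2. The highest group mean was in W_Res for 29 of the 48 genes, in PW_Con for 10, in PW_Res for 6 and in W_Con for 3. The lowest was in W_Con for 20 genes, in PW_Res for 16, in PW_Con for 10 and in W_Res for 2. The typical spread within a group also differed, with a median SD of 11.4% of the mean in W_Con, 11.6% in W_Res, 18.0% in PW_Con and 23.3% in PW_Res. PW_Res replicate 1 was the lowest of all libraries for 22 genes, W_Res replicate 2 the highest for 14 and PW_Res replicate 2 the highest for 11.

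**Figure D2:**
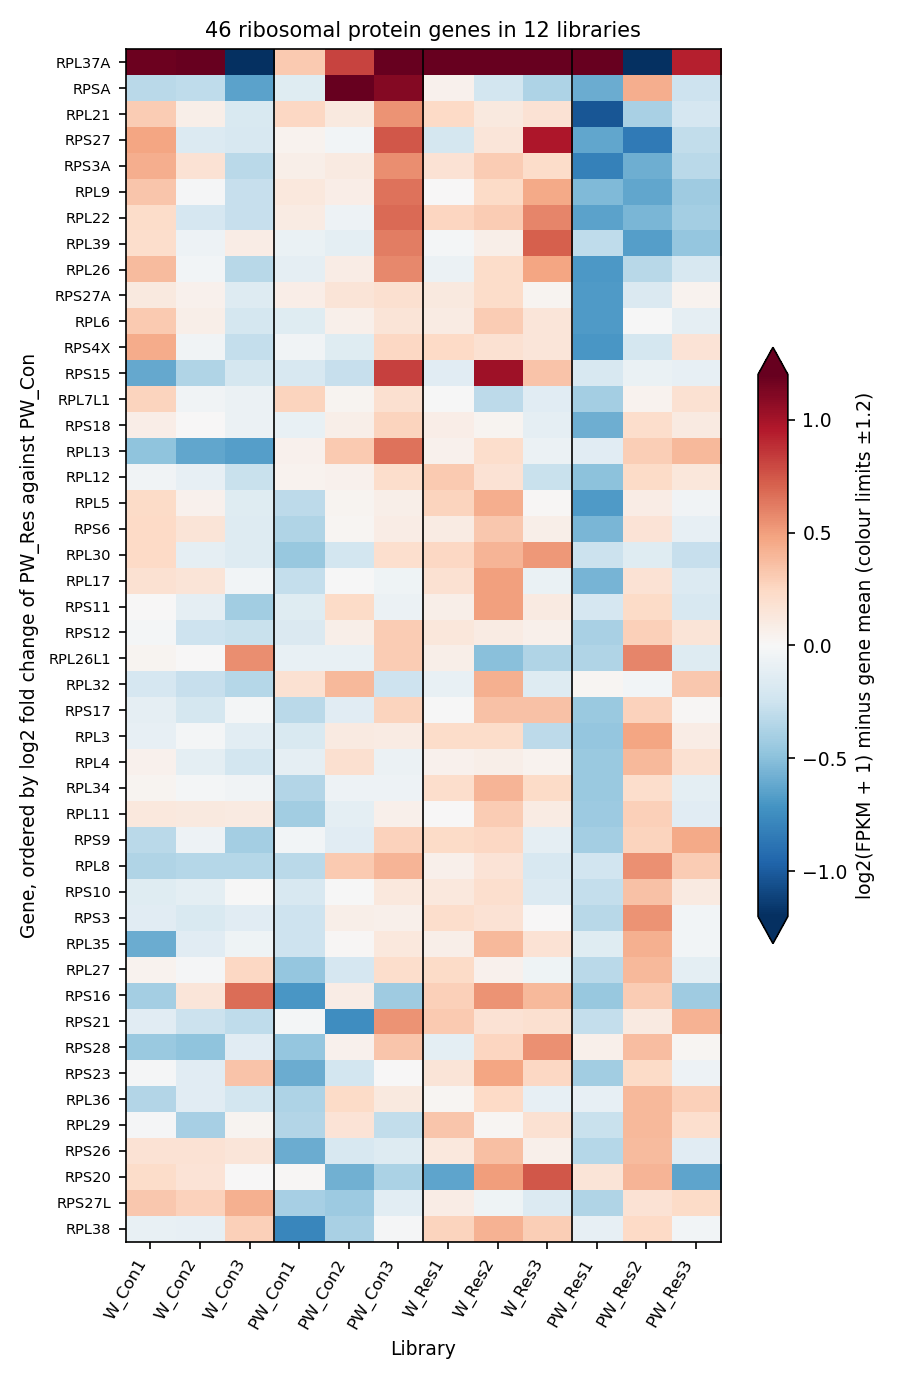
Level of 46 of the 48 genes (rows) in each library (columns) as log2(FPKM + 1) minus the mean of that gene, red above and blue below, with colours ending at 1.2 in either direction. Rows are ordered by the fold change of PW_Res against PW_Con, and the block from RPL21 to RPL26 near the top is blue in all 3 PW_Res libraries.

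RPL37A, a zinc-binding protein of the large subunit, is given by its values only. It was listed at 0 FPKM in W_Con replicate 3 and PW_Res replicate 2, where the other genes of the large subunit were measured, and at 143 and 149.6 FPKM in the remaining W_Con libraries. It stood at 78.2, 111 and 163 FPKM in PW_Con, at 169, 197 and 232 FPKM in W_Res, and at 147 and 121 FPKM in the remaining PW_Res libraries. A listed 0 may be a failed estimate, and its fold changes are not described among the comparisons below. The gene remains in the counts and medians of the 48, including the genes without overlap between groups in PW_Res against W_Res and in W_Res against W_Con.

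Marker genes of cell types and of the ileum differed in level between libraries. Markers of the jejunal enterocyte (9 of 13 listed) were present in every library, with summed levels of 12646 to 31904 FPKM in W_Con, 5574 to 16004 in PW_Con, 14388 to 17694 in W_Res and 11654.5 to 17052 in PW_Res. Ileal genes (3 of 5 listed, with FABP6, the ileal bile acid binding protein, at 1.70 to 24110.4 FPKM) summed to 68.9 to 8211 FPKM in W_Con, 6676 to 9902 in PW_Con, 52.0 to 6367 in W_Res and 88.3 to 24453 in PW_Res, the highest being PW_Res replicate 1, the library with the lowest ribosomal protein sum. Smooth muscle genes (6 of 9 listed) summed to 152 to 635 FPKM in W_Con, 414 to 562 in PW_Con, 658 to 3929 in W_Res and 202 to 629 in PW_Res, the highest being W_Res replicate 2, which also had the highest ribosomal protein sum and whose closest correlation with any other library (0.911 across all genes) was the lowest of the 12. Summed levels of crypt and cell division genes (8 of 15 listed) overlapped among all 4 groups, at 271 to 1449 FPKM, as did those of lymphocyte genes (12 of 15) at 209 to 415 FPKM and plasma cell genes (3 of 5) at 26.1 to 73.9 FPKM. The crypt sum mostly follows OLFM4 (mean 645 FPKM), since means of the other genes in it ran from 12.1 (CDK1) to 51.2 FPKM (MKI67). CD79A (mean 177 FPKM) likewise weighs most in the lymphocyte sum. Other libraries did not pair these levels in the same way. W_Con replicate 1 had both the highest ileal sum (8211 FPKM) and the highest ribosomal protein sum (23221 FPKM) of its group. PW_Res replicate 2, second highest of all libraries in ribosomal protein sum, had 451 FPKM of smooth muscle genes. No listed marker that was found was at 0 in all libraries, and the part of the marker differences in the results below was not tested.

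Differences were tested gene by gene with limma on log2(FPKM + 1), with all 12886 gene names of sufficient level in the fit. The limits used in the study, P under 0.05 without adjustment together with a change of more than 1 on the log2 scale in either direction, are called the study standard here. A gene is said below to have risen or fallen where its unadjusted P was under 0.05. No ribosomal protein gene had a Benjamini-Hochberg adjusted p under 0.05 in any of the 5 comparisons with limma or with the linear model of Ballgown, and the lowest adjusted p values with limma were 0.0950, 0.130, 0.149, 0.448 and 0.251 in the order of the comparisons below. Without adjustment the counts with P under 0.05 were 5, 8, 5, 8 and 11 with limma and 5, 1, 4, 4 and 1 with Ballgown, where 15.3, 17.6, 18.5, 7.76 and 13.7% of all genes tested had such a P with limma and 16.3, 3.66, 11, 5.01 and 4.94% with Ballgown. At the adjusted limit 0.0466% of all genes tested passed in W_Res against W_Con, and 0% in the other 4 comparisons.

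The effect of weaning in control litters was measured as PW_Con against W_Con. RPSA of the small and RPL13 of the large subunit were among 4 genes that rose, and RPS27L of the small subunit was the 1 that fell. The 5 genes are 10.4% of the 48, while 15.3% of all genes tested had a P under 0.05 (8.11% higher and 7.21% lower), so the share was not above the background. In all, 31 genes were higher and 17 lower, where 48.4% of all genes tested were higher and 51.6% lower, with a median log2 fold change of 0.11 against -0.01 over all genes tested. The median was 0.12 in the small and 0.11 in the large subunit.

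RPSA, the small subunit protein also known as the laminin receptor precursor, was the only ribosomal protein gene past the study standard in this comparison, where 3.1% of all genes tested passed it. Its level was 123, 125 and 98.6 FPKM in W_Con and 139.6, 373 and 334 FPKM in PW_Con. The groups did not overlap, but PW_Con replicate 1 lay close to W_Con and the other 2 PW_Con libraries stood far above every other library. Its log2 fold change was 1.16 (SE 0.36, limma adjusted p = 0.173). Without PW_Con replicate 2 it was 0.90, and without PW_Con replicate 3 it was 0.98, both inside the fold limit of the standard.

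RPL13, of the large subunit, had the lowest P. Its level was 117, 107 and 104 FPKM in W_Con and 170.4, 205 and 259 FPKM in PW_Con, with no overlap. The log2 fold change was 0.92 (SE 0.21, limma adjusted p = 0.0950), and it stayed between 0.77 and 1.07 when each library was left out. Without PW_Con replicate 2 the count of ribosomal protein genes with a P under 0.05 in this comparison was 3, where 11.6% of all genes tested had such a P. W_Con had the lowest values of RPL13 in any group, since W_Res stood at 171, 191 and 157 FPKM and PW_Res at 149.8, 202 and 216 FPKM.

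RPS27L, a paralog of RPS27 that is induced by p53, went the other way. It measured 25.2, 24.3 and 27.2 FPKM in W_Con and 14.9, 14.5 and 18.1 FPKM in PW_Con, without overlap, and fell by 0.66 on the log2 scale (SE 0.19, limma adjusted p = 0.142). RPS27L was 13.1 ± 3.41% of RPS27 in W_Con and 6.88 ± 1.15% in PW_Con (SD, n = 3 each). RPS26, which lies at the exit of the messenger RNA, measured 774, 775 and 760.4 FPKM in W_Con and 453, 601 and 618 FPKM in PW_Con. Its groups did not overlap either, and its log2 fold change of -0.48 had a 95% interval of -0.98 to 0.02, and it passed P under 0.05 under 4 of 12 other settings. RPS16 under its symbol had a log2 fold change of -0.48 with an interval of -1.15 to 0.19. The more abundant RPS16 entry without symbol changed by -0.04.

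RPS6, RPL5 and RPL11 did not pass the test here. The log2 fold change was -0.16 (95% interval -0.69 to 0.37) for RPS6, -0.12 (-0.66 to 0.42) for RPL5 and -0.28 (-0.78 to 0.22) for RPL11. RPS6 and RPL5 overlapped between the groups, while RPL11 (805 ± 4.17 FPKM in W_Con and 671 ± 109 FPKM in PW_Con, SD, n = 3 each) did not. Groups did not overlap for 6 genes that were higher and 4 that were lower in PW_Con, while 12.5% and 12.4% of all genes tested had such groups.

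Other genes of translation were counted from the same fit, in which 8.11% of all genes tested rose and 7.21% fell. Of 41 ribosome biogenesis factors tested, 4 rose and 0 fell, among them BOP1 (13.3 ± 2.30 FPKM in W_Con, 27.6 ± 5.40 in PW_Con, SD, n = 3 each), which acts in large subunit assembly. Of 13 RNA polymerase I genes 1 rose and 2 fell, and of 44 mitochondrial ribosomal proteins 5 rose and 0 fell, with medians of 0.02 and -0.01. TAF1C, of the factor that brings RNA polymerase I to ribosomal DNA, rose from 1.98 ± 0.356 to 5.06 ± 0.663 FPKM (SD, n = 3 each; log2 fold change 1.02), and MRPS26 from 4.01 ± 1.17 to 8.37 ± 1.06 FPKM. None of 33 initiation factors passed, and of 8 elongation, release and nascent chain factors ETF1 alone did (log2 fold change -0.53). Of 20 growth signalling genes 4 rose and 3 fell, and EIF4EBP2, a repressor of translation that mTOR inactivates, fell by 0.97 on the log2 scale. Among the marker genes of this comparison, 3 of 9 enterocyte genes passed the study standard and were lower in PW_Con, 2 of 12 lymphocyte genes passed it and were higher, and all 3 ileal genes were higher (median 1.26) with 0 passing. At any size, 8 lymphocyte genes were higher and 4 lower, and 2 enterocyte genes were higher and 7 lower. Their part in the ribosomal protein values was not tested.

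Weaning in resveratrol litters was measured as PW_Res against W_Res. In this comparison 8 genes fell and 0 rose, a share of 16.7% where 17.6% of all genes tested had a P under 0.05 with 14.2% in the lower and 3.4% in the higher direction. The genes that fell were RPS27 and RPS3A of the small subunit and RPL22, RPL9, RPL39, RPL21, RPL30 and RPL26 of the large subunit, and none passed the study standard, which 4.94% of all genes tested did. In all 9 genes were higher and 39 lower, against 34.7% and 65.2% of all genes tested, with a median of -0.22 against -0.15 over all genes tested. With the size factors both medians moved to about 0 (-0.00430 and 0.01), 23 genes were higher and 25 lower, and 3 genes fell, where 16.4% of all genes tested had a P under 0.05. With quantile normalization the median of all genes was also 0.01, but that of the 48 was -0.24, with 6 genes higher and 42 lower, and 13 fell where 13.1% of all genes tested had a P under 0.05. The median of the 48 was below 0 in all 5 scalings run, and its size differed between them.

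RPL22, of the large subunit, which has roles outside protein synthesis in lymphocyte development, moved furthest of the genes above 0 in every library. It measured 244, 252 and 305 FPKM in W_Res and 129.9, 139 and 154 FPKM in PW_Res. Every PW_Res library lay below every library of the other 3 groups, the nearest being W_Con replicate 3 at 168 FPKM. The log2 fold change was -0.92 (SE 0.23, limma adjusted p = 0.130), and it stayed between -0.98 and -0.82 when each library was left out.

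RPL9 measured 91.8, 107 and 126 FPKM in W_Res and 62.9, 58.9 and 67.4 FPKM in PW_Res. RPS3A, on the platform of the small subunit, measured 376, 412 and 388 FPKM in W_Res and 190.1, 222 and 267 FPKM in PW_Res. RPS27, a zinc-finger protein of the small subunit, measured 168, 216 and 382 FPKM in W_Res and 126, 108 and 159 FPKM in PW_Res. Groups did not overlap for any of the 3 genes, though RPS27 varied much in W_Res. Their log2 fold changes with limma were -0.76 for RPL9 (SE 0.22, adjusted p = 0.154), -0.80 for RPS3A (SE 0.24, adjusted p = 0.157) and -0.89 for RPS27 (SE 0.33, adjusted p = 0.217).

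The other 4 fell by similar amounts, without overlap between the groups. In all, groups did not overlap for 12 genes that were lower, against 17.7% of all genes tested, and for 0 that were higher, against 3.98%. RPL21 fell from 203 ± 8.16 to 126 ± 34.9 FPKM, RPL30 from 426 ± 39.7 to 277 ± 13.9 FPKM, RPL39, which lines the exit tunnel, from 155 ± 46.3 to 91.1 ± 11.4 FPKM, and RPL26 from 409.6 ± 76.9 to 267 ± 45.9 FPKM (SD, n = 3 each). The log2 fold changes were -0.72, -0.62, -0.73 and -0.61. RPS27 and RPL39 lost their call without W_Res replicate 3 (-0.55 and -0.50) or PW_Res replicate 2 (-0.76 and -0.64). RPL26 lost its call without W_Res replicate 3 (-0.48), W_Res replicate 2 (-0.61), PW_Res replicate 1 (-0.47), PW_Res replicate 2 (-0.65) or W_Con replicate 2 (-0.61). It also lost the call, at the same fold change of -0.61, with the compared groups alone or the replicate number as a block. The 8 calls became 1, which was RPS16 under its symbol, in the linear model of Ballgown, where 3.66% of all genes tested had a P under 0.05. The more abundant RPS16 entry without symbol had a limma log2 fold change of -0.11 here. With the size factors RPS27 (-0.67), RPL39 (-0.52), RPL21 (-0.50), RPL30 (-0.40) and RPL26 (-0.39) lost the call, as did RPL26 (-0.52) with upper-quartile rescaling.

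The highest fold changes were in RPL26L1, the paralog of RPL26 (log2 0.29, 95% interval -0.31 to 0.88), RPL8 (0.20, -0.36 to 0.75) and RPL36 (0.14, -0.36 to 0.63). None of these passed the test, and their groups overlapped. RPL26L1 was 8.09 ± 3.28% of RPL26 in W_Res and 14.95 ± 5.02% in PW_Res (SD, n = 3 each), with overlap. In this comparison 5 of 6 smooth muscle genes passed the study standard and were lower in PW_Res, with a median over the 6 of -2.32 on the log2 scale, and their part in the fall of the 8 genes was not tested.

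Among other genes of translation, 5 of 33 initiation factors and 2 of 8 elongation and nascent chain factors fell and none rose. For comparison, 14.2% of all genes tested fell and 3.4% rose. EIF4E3 fell from 6.76 ± 1.31 to 3.15 ± 0.422 FPKM, and EEF1B2, the exchange factor of elongation factor 1, from 361 ± 64.0 to 215 ± 42.6 FPKM (log2 fold change -0.75), while NACA, which binds the chain as it leaves the ribosome, fell from 101 ± 11.1 to 69.4 ± 12.2 FPKM (SD, n = 3 each). None of 41 ribosome biogenesis factors (median 0.12), 44 mitochondrial ribosomal proteins (median 0.12) or 13 RNA polymerase I genes (median -0.07) passed. Of 20 growth signalling genes 2 fell and 0 rose, with a median of -0.13. PDCD4, which holds back the initiation helicase, fell by 1.10 on the log2 scale, past the study standard.

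**Figure D3:**
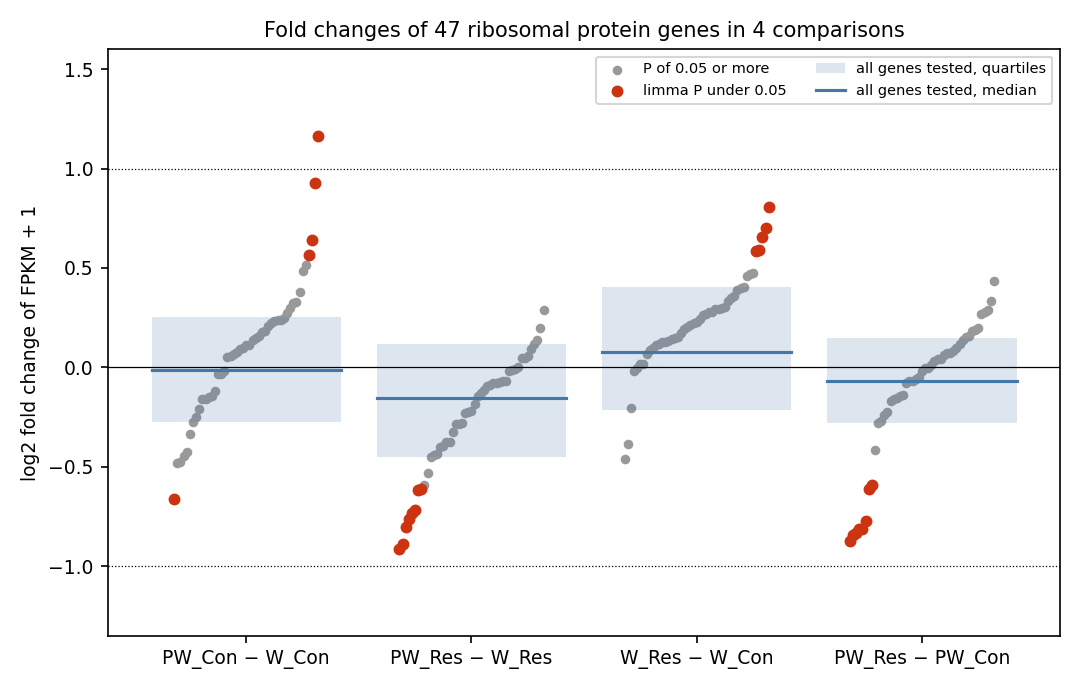
Log2 fold change of each of the 47 genes other than RPL37A in the 4 comparisons of groups, sorted within each, with genes of limma P under 0.05 in red. The blue line and band give the median and quartiles of all 12886 genes tested and the dotted lines the fold limits of the study standard, which RPSA alone passes in PW_Con against W_Con.

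Maternal resveratrol was compared with control at 21 days as W_Res against W_Con, which shares the W_Con libraries with the first comparison and the W_Res libraries with the second. It gave 5 genes that rose, among them RPS15 and RPS28 of the small and RPL13 of the large subunit, and 0 that fell. That is 10.4% of the 48, against 18.5% of all genes tested with a P under 0.05 with 13% in the higher and 5.45% in the lower direction. No ribosomal protein gene passed the study standard, which 4.77% of all genes tested did. In all 43 genes were higher and 5 lower, where 57.3% of all genes tested were higher and 42.7% lower, with a median of 0.24 against 0.08 over all genes tested, and with the size factors 38 were higher with medians of 0.14 and 0.00081. The calls were 2 higher and 1 lower with the size factors, 7 and 1 with quantile normalization and 4 and 1 with upper-quartile rescaling, where 18.1, 19.2 and 18.4% of all genes tested had a P under 0.05, and the gene called lower in these settings was RPS27L.

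Groups did not overlap for 18 genes that were higher in W_Res, while 13.8% of all genes tested had such groups, and for 1 gene, RPS27L, that was lower, where the share of all genes was 7.26%. Most of the 18 had small differences that did not pass the test. RPL8, a protein at the catalytic centre, was among them with 299, 302 and 303 FPKM in W_Con and 399.6, 431 and 336 FPKM in W_Res, a spread in W_Con far below the median of 11.4% of the mean.

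RPL13 measured 171, 191 and 157 FPKM in W_Res, against 117, 107 and 104 FPKM in W_Con, without overlap. Its log2 fold change was 0.66 (SE 0.21, limma adjusted p = 0.149). It kept a P under 0.05 without each library in turn and under every other setting tried. RPS15, whose tail reaches the decoding site, measured 89.7, 107 and 118 FPKM in W_Con and 125, 279.8 and 175 FPKM in W_Res. Its groups did not overlap, and its log2 fold change was 0.80 (SE 0.33). The call was lost without W_Con replicate 1 (0.70), W_Con replicate 2 (0.82), W_Res replicate 2 (0.50) or W_Res replicate 3 (0.84), and with size factors (0.71) or Ballgown (0.74).

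RPS28, at the exit of the messenger RNA, measured 48.4, 63.4 and 77.7 FPKM in W_Res and 38.5, 37.5 and 47.8 FPKM in W_Con. The groups did not overlap, though the lowest W_Res library was close to the highest of W_Con. The log2 fold change was 0.59 (SE 0.24, limma adjusted p = 0.225), and the call was lost without W_Con replicate 1 (0.54), W_Con replicate 2 (0.52), W_Res replicate 2 (0.57) or W_Res replicate 3 (0.43), and with size factors (0.49) or upper-quartile rescaling (0.51). The lowest fold changes were all in paralogs, with -0.46 for RPL26L1 (95% interval -1.06 to 0.13), -0.39 for RPS27L (-0.79 to 0.02) and -0.20 for RPL7L1 (-0.62 to 0.21).

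In this comparison 5 of 6 smooth muscle genes passed the study standard and were higher in W_Res, with a median over the 6 of 2.45 on the log2 scale, and 4 of 12 lymphocyte genes passed it and were lower. The lymphocyte list was split, with 5 genes higher, 1 of them at a P under 0.05, and 7 lower. Of 9 enterocyte genes 8 were lower, with a median of -0.76, 1 with a P under 0.05 and 0 past the standard. The part of these in the ribosomal protein values was not tested. The median of the 48 genes stayed between 0.18 and 0.30 when each library was left out, and without W_Res replicate 2, the library with the most smooth muscle signal, 2 genes, RPL13 among them, had a P under 0.05, where 12.3% of all genes tested did. The count was 3 without W_Con replicate 2 and 3 without W_Res replicate 3, where 16.7 and 20.2% of all genes tested had such a P.

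Of the other genes of translation, 2 of 8 elongation and nascent chain factors rose and 1 fell. For comparison, 13% of all genes tested rose and 5.45% fell. EEF2, which moves the ribosome along the messenger RNA, rose from 698 ± 34.1 to 1123 ± 264 FPKM (SD, n = 3 each; log2 fold change 0.66), EEF1B2 rose by 0.57 on the log2 scale, and ETF1, the release factor, fell by 0.58 on that scale. Of 20 growth signalling genes 3 rose and 1 fell, and TSC2, an inhibitor of mTOR, rose from 5.63 ± 0.606 to 10.5 ± 1.06 FPKM. Of 44 mitochondrial ribosomal proteins 2 rose and 0 fell with a median of -0.04, and of 41 biogenesis factors 1 rose and 2 fell with a median of -0.14. Of 33 initiation factors 1 rose (EIF3D, 0.48) and 1 fell (EIF2B1, -0.60), and of 13 RNA polymerase I genes TAF1C alone rose (0.64).

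At 28 days PW_Res was compared with PW_Con. The genes that fell were 8 and those that rose 0, or 16.7% of the 48 against 7.76% of all genes tested with a P under 0.05 with 5.25% in the lower and 2.51% in the higher direction. They were RPSA, RPS27 and RPS3A of the small subunit and RPL21, RPL9, RPL22, RPL39 and RPL26 of the large subunit. None passed the study standard, which 1.55% of all genes tested did. In all there were 21 genes higher and 27 lower, where 41% of all genes tested were higher and 58.9% lower, and a median of -0.03 against -0.07 over all genes tested, which became 0.07 against 0.01 with the size factors. The calls were then 1 higher and 4 lower, the higher being RPS27L, where 7.99% of all genes tested had a P under 0.05. RPSA (-0.77), RPS27 (-0.73), RPL39 (-0.51) and RPL26 (-0.49) lost the call with the size factors, and also with Ballgown.

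This comparison shares its PW_Res libraries with that of weaning in resveratrol litters, so the 2 comparisons are not independent. RPL22 measured 219, 195 and 326 FPKM in PW_Con, against 129.9, 139 and 154 FPKM in PW_Res, a log2 fold change of -0.77 (SE 0.23, limma adjusted p = 0.466). RPL9 measured 99.5, 96.5 and 144 FPKM in PW_Con, against 62.9, 58.9 and 67.4 FPKM in PW_Res, a log2 fold change of -0.81 (SE 0.22, limma adjusted p = 0.448). In both genes PW_Con replicate 3 was the highest library of its group, and the groups did not overlap.

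RPS3A stood at 349.6, 358 and 490.2 FPKM in PW_Con and RPL21 at 213, 195 and 260.5 FPKM, above every PW_Res library of the same gene. The log2 fold changes were -0.81 for RPS3A (SE 0.24, limma adjusted p = 0.466) and -0.84 for RPL21 (SE 0.23, limma adjusted p = 0.463). These 4 genes kept a P under 0.05 without each library in turn, in ranges of -0.92 to -0.55 for RPL22, -0.91 to -0.63 for RPL9, -0.94 to -0.66 for RPS3A and -1.01 to -0.60 for RPL21, and under each of 12 other settings.

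RPS27 fell from 238 ± 75.9 to 131 ± 25.9 FPKM, RPL39 from 143 ± 44.0 to 91.1 ± 11.4 FPKM and RPL26 from 408 ± 103 to 267 ± 45.9 FPKM (SD, n = 3 each). Their log2 fold changes were -0.83, -0.61 and -0.59, and their groups did not overlap. Without PW_Con replicate 3 these were -0.59 for RPS27, -0.38 for RPL39 and -0.40 for RPL26, and none had a P under 0.05. RPS27 also lost its call without PW_Res replicate 1 (-0.82) or 2 (-0.70), RPL39 without PW_Res replicate 2 (-0.52) or 3 (-0.62), and RPL26 without W_Con replicate 2 (-0.59), W_Res replicate 2 (-0.59), PW_Con replicate 2 (-0.64), PW_Res replicate 1 (-0.45) or PW_Res replicate 2 (-0.63). RPL26 lost it as well, at the same fold change of -0.59, with no filter, the compared groups alone or the replicate number as a block.

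RPSA differed from these in that its groups overlapped. It measured 102, 210.0 and 130.5 FPKM in PW_Res, and 139.6 FPKM in the lowest PW_Con library. The log2 fold change of -0.87 (SE 0.36, limma adjusted p = 0.609) became -0.61 without PW_Con replicate 2, -0.69 without PW_Con replicate 3, -0.64 without PW_Res replicate 1 and -0.82 without PW_Res replicate 3, with a P above 0.05 each time. Over all fits without a library RPSA ran from -1.32 to -0.61, and it passed the study standard without PW_Con replicate 1 or without PW_Res replicate 2. With the compared groups alone it lost the call (-0.87). The highest fold changes were 0.43 for RPL38 (95% interval -0.08 to 0.95), 0.33 for RPS27L (-0.07 to 0.74) and 0.29 for RPS20 (-0.52 to 1.10). Groups did not overlap for 8 genes that were lower, against 11.8% of all genes tested, and for 0 that were higher, against 5.4%.

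Ileal genes, at 6676 to 9902 FPKM in PW_Con, were near 100 FPKM in PW_Res replicates 2 and 3 (88.3 and 102) and at 24453 FPKM in PW_Res replicate 1. All 12 lymphocyte genes found were lower in PW_Res, with 4 at a P under 0.05 and a median of -0.93 on the log2 scale. The part of the ileal and lymphocyte genes in the ribosomal protein values was not tested. Of other genes of translation, 3 of 33 initiation factors, 1 of 41 biogenesis factors and 1 of 44 mitochondrial ribosomal proteins fell and none rose. For comparison, 5.25% of all genes tested fell and 2.51% rose. EIF3E, a subunit of initiation factor 3, fell from 25.1 ± 0.230 to 13.4 ± 0.931 FPKM (SD, n = 3 each; log2 fold change -0.85). None of 8 elongation and nascent chain factors or 13 RNA polymerase I genes passed, and of 20 growth signalling genes EIF4EBP2 alone did (0.64).

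**Figure D4:**
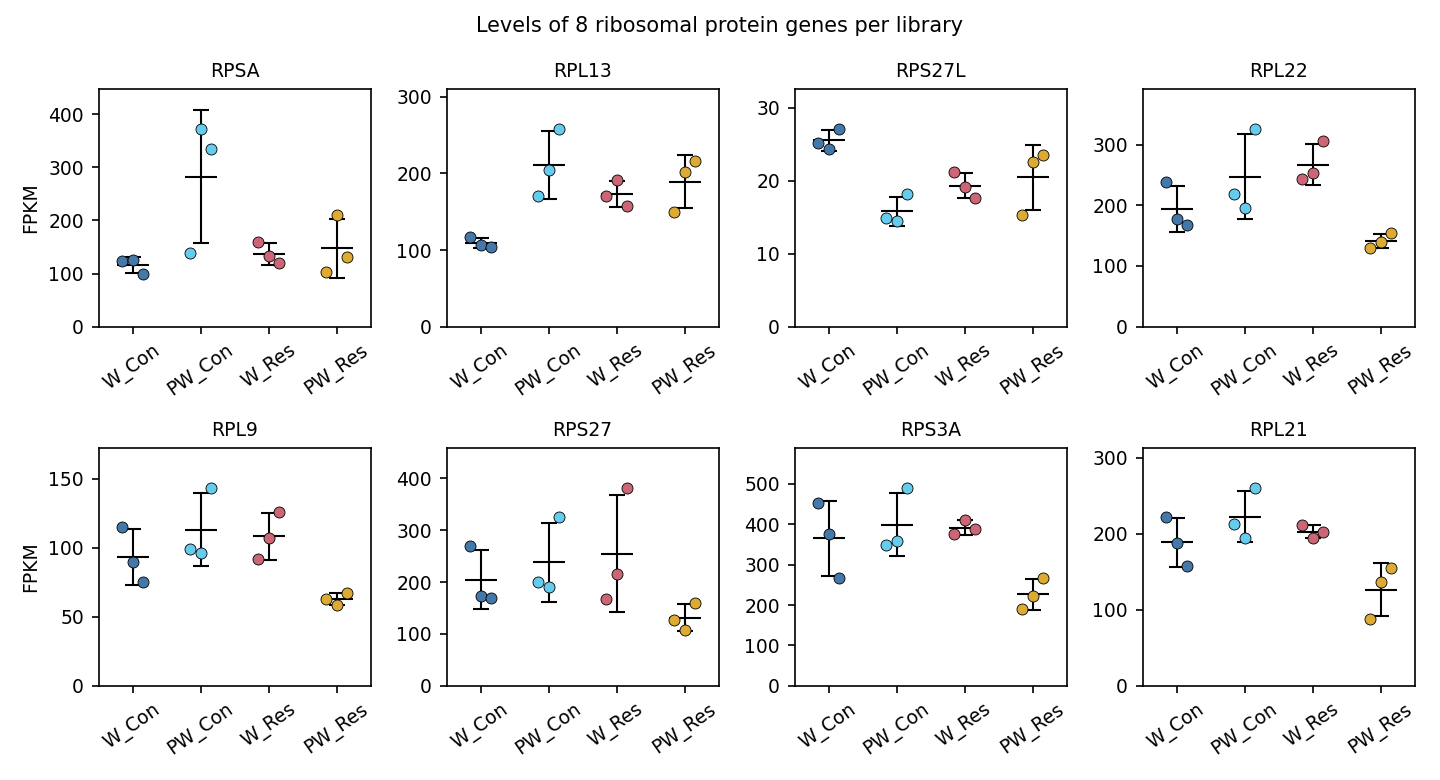
Level in FPKM of 8 ribosomal protein genes in each library, with the group mean ± SD (n = 3) as bars. By group mean RPSA and RPL13 are lowest in W_Con and RPS27L highest there, whereas RPL22, RPL9, RPS27, RPS3A and RPL21 are lowest in PW_Res.

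Whether weaning acted differently in resveratrol and control litters was tested as the difference of the weaning effects, which uses the same 12 libraries. Here 10 genes had a more negative effect in resveratrol litters and 1 a more positive effect, 22.9% of the 48 against 13.7% of all genes tested with 10.4% in the negative and 3.31% in the positive direction. RPL22, RPL9, RPS15 and RPS27 passed the study standard, 8.33% of the 48 against 7.76% of all genes tested. In all 41 genes were lower and 7 higher, where 60.9% of all genes tested were lower and 39.1% higher, with a median of -0.33 against -0.15 over all genes tested, and with the size factors 29 were lower and 19 higher with medians of -0.13 and 0.0011 and 5 genes had a P under 0.05, where 13.5% of all genes tested did.

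RPL22 had the largest difference of these. Its weaning effect was 0.32 in control and -0.92 in resveratrol litters, a difference of -1.24 (SE 0.32, limma adjusted p = 0.251). It passed the study standard without each of the 12 libraries in turn, at -1.395 to -1.02, and under each of 11 other settings, at -1.33 to -1.04. RPL9, with effects of 0.27 and -0.76, differed by -1.03 (SE 0.31, limma adjusted p = 0.251) and by -1.19 to -0.85 when each library was left out, always with a P under 0.05. It passed the study standard in 8 of these 12 fits. With size factors RPL9 lay inside the fold limit (-0.83), and with Ballgown it lost the call (-0.80).

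RPS27, with effects of 0.21 and -0.89, differed by -1.10 (SE 0.47, limma adjusted p = 0.337), and RPS15, with effects of 0.51 and -0.53, by -1.04 (SE 0.46, limma adjusted p = 0.349). The call was lost in 6 of 12 fits without a library for RPS27 and in 8 of 12 for RPS15. RPS15 was high in only 3 libraries, PW_Con replicate 3 (244 FPKM), W_Res replicate 2 (279.8 FPKM) and W_Res replicate 3 (175 FPKM), and between 89.7 and 130.1 FPKM in the other 9. Without W_Res replicate 2 its difference was -0.74 and without PW_Con replicate 3 it was -0.69.

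Of the remaining genes with a P under 0.05, RPL21 differed by -0.96 (SE 0.33), RPS3A by -0.95 (SE 0.33), RPL13 by -0.81 (SE 0.29) and RPL39 by -0.79 (SE 0.36). These came about in different ways. RPL21, RPS3A and RPL39 fell with weaning in resveratrol litters, whereas RPL13 rose with weaning in control litters. RPS27L, with effects of -0.66 and 0.06, had the only positive difference (0.72, SE 0.26, limma adjusted p = 0.286). RPL21, RPS3A and RPL13 had a P under 0.05 without each library in turn, while RPL39 kept it in 5 and RPS27L in 11 of 12 such fits. RPL13 (-0.61) and RPL39 (-0.59) lost it with size factors, RPL39 also with upper-quartile rescaling (-0.70), and all 5 lost it with Ballgown. RPSA had a difference of -1.12 with a 95% interval of -2.24 to 0.0016. Of the other lists, 2 of 33 initiation factors were more positive and 2 more negative (EIF4E2 1.76, EIF3E -1.23), as were 1 and 2 of 8 elongation and nascent chain factors, 0 and 1 of 41 biogenesis factors, 0 and 2 of 44 mitochondrial ribosomal proteins, 0 and 1 of 13 RNA polymerase I genes and 1 and 3 of 20 growth signalling genes. For comparison, 3.31% of all genes tested were more positive and 10.4% more negative at a P under 0.05. Of 6 smooth muscle genes 5 passed the study standard in the negative direction, and of 9 enterocyte genes 7 were more positive, 2 of them past the standard, with a median of 1.01. Their part was not tested.

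Likeness of pattern was described by the correlation of log2 levels over the 12 libraries. Over the 1128 pairs of the 48 genes, the median correlation was 0.34, with 190 pairs (16.8%) below 0. All points share library and depth, so levels were then centred on the median of the 48 genes in each library, after which the median correlation was 0.12. Nearest to RPL22 were RPL9 (0.95), RPS27 (0.91), RPL26 (0.90), RPS3A (0.89), RPL39 (0.88) and RPL21 (0.83). Correlations with RPL13 were 0.82 for RPS12 and 0.78 for RPL8. The correlations are over the libraries that the comparisons used, and are given without a test.

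The pair of paralogs RPS27 and RPS27L differed in pattern. RPS27L was 9.33, 14.0 and 16.0% of RPS27 in W_Con, 7.45, 7.64 and 5.56% in PW_Con, 12.6, 8.89 and 4.64% in W_Res and 12.1, 21.0 and 14.8% in PW_Res. All PW_Con values were below all W_Con and all PW_Res values, and W_Res overlapped each of the other groups.

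The entries of the ribosome pathway known by Ensembl identifier only, which the rule does not take, gave medians of 0.08 in PW_Con against W_Con, -0.14 in PW_Res against W_Res, 0.29 in W_Res against W_Con and 0.03 in PW_Res against PW_Con over 16 entries. Of these 10, 3, 14 and 9 were higher in the same order, where 48.4, 34.7, 57.3 and 41% of all genes tested were. RPLP1 measured 1609.7, 1630.5 and 1699 FPKM in W_Con and 2290.3, 2275 and 2367 FPKM in W_Res, without overlap, and RPLP2 639, 702 and 670.2 FPKM in W_Con and 843, 779 and 717 FPKM in W_Res, also without overlap. RPLP1 was above every W_Con library in PW_Con (1844, 2060 and 2518 FPKM) and in PW_Res (2019, 2260 and 2256 FPKM) as well. RPLP2 overlapped W_Con in both of those groups. The RPS16 entry without symbol overlapped, at 326, 351 and 424 FPKM in W_Con and 373, 493 and 417 FPKM in W_Res.

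**Figure D5:**
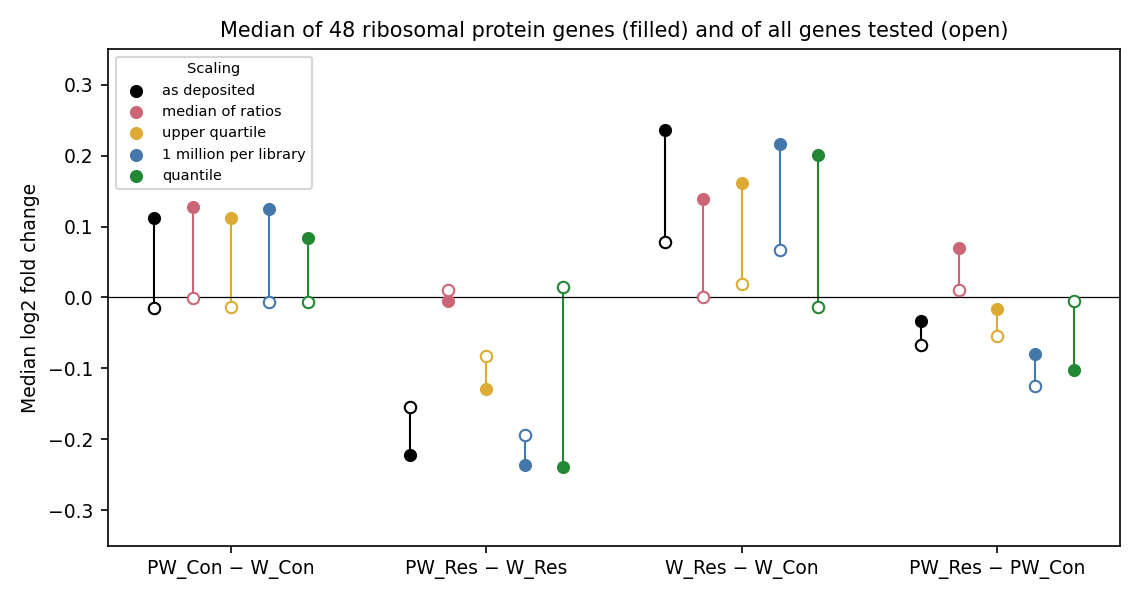
Median log2 fold change of the 48 ribosomal protein genes (filled) and of all 12886 genes tested (open) in the 4 comparisons under 5 scalings of the libraries. With the size factors (median of ratios) the filled points of PW_Res against W_Res move from -0.22 to about 0 and those of PW_Res against PW_Con from -0.03 to 0.07, while those of W_Res against W_Con stay above 0 under all 5 scalings.

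The median of all genes tested was -0.15 in PW_Res against W_Res as deposited, 0.01 with the size factors and 0.01 with quantile normalization, while that of the 48 genes was -0.22, -0.00430 and -0.24. Over 5 scalings, the median of the 48 genes ran from 0.08 to 0.13 in PW_Con against W_Con, from -0.24 to -0.00430 in PW_Res against W_Res, from 0.14 to 0.24 in W_Res against W_Con and from -0.10 to 0.07 in PW_Res against PW_Con. RPL22 in PW_Res against W_Res ran from -1.01 to -0.70 over 12 other settings and RPL13 in PW_Con against W_Con from 0.92 to 0.94. Which part of the library differences is technical was not tested.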

How the data were processed

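RNA was extracted from jejunum, selected by poly(A), and sequenced as 150-bp pairs by the authors, who assembled and quantified transcripts with StringTie. Per the submitters' processing notes the tools included HISAT2 2.0, StringTie 1.3.0 and Bowtie 0.12.2 and the genome builds Sscrofa10.2 and mm8, while the study's methods name TopHat, so which aligner made the values is uncertain. The deposited table holds FPKM, normalized by the authors to each library's mapped reads, for 41264 loci in 12 libraries, of which 42.8% carry no gene name. Read counts and depth per library were not used here, so counting error is unknown.

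From these values, loci of 1 gene name were summed, and log2(FPKM + 1) of the 12886 gene names with a mean of at least 0.5 FPKM was fitted with limma 3.58.1 in R 4.3.3, as 4 group means over all 12 libraries with a mean-variance trend. P-values were adjusted by Benjamini-Hochberg over all these names. Fold changes on this scale understate those of low genes. No 3-against-3 exact permutation test can go below p = 0.1, so none is given for single values. Alternatives were other library scalings, a pseudocount of 0.1, other filters (none, or 5 FPKM), no trend, the compared groups alone, a replicate block, unsummed loci, the linear model of Ballgown, and each library left out.

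Genes were named when past the study standard, among the 3 highest or 3 lowest fold changes of a comparison, the 3 most abundant of a subunit, or by role. Others with P under 0.05 were named after their values were seen. The genes, marker lists and translation lists were chosen with earlier results of these data known. The analysis code was tested on simulated data. No sequences are printed, as none were used here. A few genes of these lists enter the counts and are not reported singly here.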

Additional observations from a re-analysis of the deposited data

Results flagged for a closer look

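The effect of weaning differed between resveratrol and control litters by the test of the difference itself in 4 ribosomal protein genes that also passed the study standard. The difference, as the log2 effect in resveratrol minus that in control litters, was -1.24 for RPL22 (limma adjusted p = 0.251) and -1.03 for RPL9 (-1.034, limma adjusted p = 0.251). It was -1.10 for RPS27 (-1.097, limma adjusted p = 0.337) and -1.04 for RPS15 (-1.044, limma adjusted p = 0.349). None passed after adjustment over all genes tested. The 4 genes are 8.33% of the 48, where 7.76% of all genes tested passed the standard, so the share is near the background. With size factors RPL22 alone passed the standard, and RPS27 (-0.90) and RPS15 (-0.84) had a P above 0.05. With Ballgown RPL9 (-0.80) also had a P above 0.05, and RPL22 alone passed the standard.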

How the results depend on the processing

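Over all settings and named genes, 1081 values kept their direction and their side of the threshold, 135 lost the call, 15 gained it and 6 reversed. The count of ribosomal protein genes with P under 0.05 moved with scaling and tool. In PW_Con against W_Con it was 5 and became 8 with quantile normalization (15.8% of all genes tested). In PW_Res against W_Res it was 8 and became 3 with median-of-ratios size factors, 13 with quantile normalization and 1 with the Ballgown model, while the share of all genes tested went from 17.6% to 16.4, 13.1 and 3.66%. In W_Res against W_Con it was 5 and became 3 with size factors (18.1%) and 8 with quantile normalization (19.2%). In PW_Res against PW_Con it was 8 and became 5 with size factors (7.99%) and 4 with Ballgown (5.01%). For the difference of weaning effects it was 11 and became 5 with size factors (13.5%), 6 with upper-quartile rescaling (13.4%), 1 with Ballgown (4.94%), 13 with quantile normalization (12.6%) and 13 with rescaling to a common total (14%), and the 4 genes past the study standard became 1, 1, 1, 6 and 5. In PW_Res against W_Res 1 gene passed the standard with quantile normalization (RPL22) and 1 with Ballgown (RPS16 under its symbol), against 0. The log2 ratio of the summed level there moved from -0.22 to 0.0018 with size factors.

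RPL26L1 reversed to -0.35 in PW_Res against W_Res with Ballgown. RPL37A, listed at 0 in 2 libraries, reversed with Ballgown to 2.76 in PW_Res against W_Res, -0.17 in W_Res against W_Con and 0.16 in PW_Res against PW_Con, to -0.38 in PW_Con against W_Con without W_Con replicate 3, and to 0.25 in PW_Res against PW_Con without PW_Res replicate 2. Over the fits that left out a library it ran from -0.38 to 3.24 in PW_Con against W_Con and from -3.36 to 0.25 in PW_Res against PW_Con. The cause of the other changes was not tested.

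With each library left out, the counts with P under 0.05 ran from 3 to 7, 5 to 10, 2 to 6, 5 to 8 and 6 to 13 in the order of the report, the counts past the standard from 0 to 2, 0 to 1, 0 to 1, 0 to 1 and 1 to 6, and the medians from 0.01 to 0.17, -0.41 to -0.06, 0.18 to 0.30, -0.17 to 0.13 and -0.45 to -0.12. In the same order, 11.2 to 16.5, 10.6 to 22.3, 12.3 to 22, 5.6 to 8.61 and 8.82 to 17.5% of all genes tested had a P under 0.05. No adjusted p passed in any of these fits. The log2 ratios of the summed level ran from -0.06 to 0.12, -0.37 to -0.08, 0.18 to 0.27 and -0.16 to 0.13. The lowest counts came without PW_Con replicate 2 (3), W_Res replicate 3 (5), W_Res replicate 2 (2), PW_Con replicate 3 or PW_Res replicate 2 (5 each), and W_Con replicate 2 or PW_Con replicate 3 (6 each). In these fits 11.6, 18.4, 12.3, 5.81, 5.94, 13.3 and 10.7% of all genes tested had such a P, in the same order.

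Replicate numbers occur in all groups. With the replicate number as a block the counts were 5, 8, 6, 7 and 12, and those past the standard 1, 0, 0, 0 and 5. With that block 15.3, 17.6, 19.3, 8.18 and 14.4% of all genes tested had a P under 0.05. Libraries of the same number did not deviate together, with correlations from -0.26 to 0.30 over 18 pairs (median 0.01, against 0.03 for 36 other pairs), and 4 of 12 libraries correlated best with their own number, so the numbers were not taken as pairs. Sets of 3 libraries without read counts leave changes smaller than the intervals given undetectable.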
